A study of Homo sapiens with 17 samples.

Results

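The RIO kinases RIOK1, RIOK2 and RIOK3 were followed in YB5 cells given toyocamycin, an adenosine analogue made by Streptomyces that has been described as an inhibitor of RIOK1 and that the study examined as an inhibitor of the transcription kinase CDK9. They were taken from the deposited count table by symbol, as 3 of its 19141 genes, and all 3 passed the filter on low counts at every time. YB5 is a line made from SW48, a human colon cancer line, and carries a silenced CMV promoter in front of a GFP reporter. Polyadenylated RNA was sequenced from 8 libraries of cells given the vehicle DMSO and 9 libraries of cells given 250 nM toyocamycin. The 2 h arms held 2 libraries each, the 24 h and 48 h arms 1 each and the 72 h arms 3 each, and those of 10 h 1 (DMSO) and 2 (toyocamycin). The last time is 72 h in the sample labels and 96 h in the study's text, and is called 72 h here. All libraries came from this 1 line at 1 dose, and no value here measures kinase protein or kinase activity.

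RIO kinases are an old family of atypical protein kinases with members in archaea and eukaryotes. RIOK1 and RIOK2 act in the last steps of making the small (40S) ribosomal subunit. RIOK2 joins the precursor in the nucleus and leaves it in the cytoplasm by using its ATPase activity, and RIOK1 acts later, when the last cut of the 18S rRNA is made by the nuclease NOB1. RIOK1 also binds the methyltransferase PRMT5 and brings it substrates such as nucleolin. RIOK3 occurs in animals, has also been found on 40S precursors, and is known from innate immune signalling and from the maturation of red blood cells.

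The libraries held 8735465 to 22121364 reads in genes. The epithelial genes EPCAM, CDH1, KRT8 and KRT18 and the intestinal factor CDX2 were read in every DMSO library. The villus gene VIL1 stayed between 0.499 and 2.72 CPM there (reads of a gene relative to the library total). The marker CPM in this paragraph carry no scaling factor, whereas those of the RIO kinases below are on the TMM scale. Levels are therefore not compared between them. Of markers of other cells, the leukocyte gene PTPRC stayed at or below 0.542 CPM in DMSO, the mesenchymal VIM at or below 1.03 and the endothelial PECAM1 at or below 0.0542, and COL1A1 reached 10.1. Over the toyocamycin libraries PTPRC and PECAM1 reached 2.63 CPM, VIM 3.66 and COL1A1 8.95. The PTPRC, PECAM1 and VIM maxima came from 1 library, replicate 2 of 10 h. PTPRC had at most 23 reads in any library and VIM at most 32. At 72 h PECAM1 stood at 1.56 ± 0.670 against 0 in DMSO and VIM at 0.663 ± 0.0647 against 0.135 ± 0.0222 (SD, n = 3 each). After 72 h of toyocamycin EPCAM stood at 76.6 ± 13.0 CPM against 301.3 ± 24.6 in DMSO (SD, n = 3 each) and KRT8 at 199 ± 12.8 against 4744 ± 346. Without a scaling factor CDX2 was at 77.3 ± 5.02 against 76.9 ± 13.3. The TMM factors were 0.727 to 0.755 in these toyocamycin libraries and 1.09 to 1.12 in the DMSO libraries. On the TMM scale the toyocamycin levels would thus stand higher relative to DMSO. The part of these markers in the results below was not tested. Toyocamycin replicate 2 of 10 h had the fewest reads and the highest share of reads in mitochondrially encoded genes. It and replicate 1 of its group were of different batches. The filter on low counts kept 16521 genes for the 10 h fit, 14519 without replicate 2 and 16500 without replicate 1. Whether batch or depth lies behind this was not tested. Replicate 2 of both treatments at 2 h and at 10 h belonged to the labelled batch 2, and the other 13 libraries to batch 1. The share of reads in the 13 mitochondrially encoded genes ran from 0.917% to 6.55%. The sources used here describe no added RNA standard, so the amount of RNA per cell is unknown, and fewer cells and less RNA per cell cannot be told apart.

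The 3 genes lie on different chromosomes. In the GRCh38 annotation RIOK1 (ENSG00000124784) spans bases 7389793 to 7418037 of chromosome 6 on the plus strand, RIOK2 (ENSG00000058729) bases 97160867 to 97183247 of chromosome 5 on the minus strand, and RIOK3 (ENSG00000101782) bases 23453287 to 23486603 of chromosome 18 on the plus strand. Their annotated exons cover 2940, 5489 and 4856 bases. An exon of RIOK2 overlaps the antisense lncRNA gene LIX1-AS1, whose own reads were not counted, and the sources used here do not state whether the counting used strand. A RIOK3 pseudogene, RIOK3P1, was also not among the counted genes.

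Since toyocamycin moved the 3 mRNAs at different times, the 250 bases before the RefSeq start of each gene are shown side by side (GRCh38.p14, 5′ to 3′ on the gene's strand). Capitals mark the matches of 4 core promoter motifs searched on both strands, the GC box GGGCGG, the CCAAT box CCAAT, the TATA box TATAAA and the E-box CACGTG.
RIOK1 chr6:7389558-7389807 (+): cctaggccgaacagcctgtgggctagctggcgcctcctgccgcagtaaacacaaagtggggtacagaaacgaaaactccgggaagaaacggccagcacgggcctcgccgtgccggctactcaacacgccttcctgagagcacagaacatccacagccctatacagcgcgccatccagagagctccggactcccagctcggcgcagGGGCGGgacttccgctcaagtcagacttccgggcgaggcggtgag
RIOK2 chr5:97183248-97183497 (-): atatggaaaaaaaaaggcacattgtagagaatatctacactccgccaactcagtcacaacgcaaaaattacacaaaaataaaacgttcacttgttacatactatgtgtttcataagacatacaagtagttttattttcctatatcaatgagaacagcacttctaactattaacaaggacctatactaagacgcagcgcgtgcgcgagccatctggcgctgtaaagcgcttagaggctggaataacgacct
RIOK3 chr18:23453037-23453286 (+): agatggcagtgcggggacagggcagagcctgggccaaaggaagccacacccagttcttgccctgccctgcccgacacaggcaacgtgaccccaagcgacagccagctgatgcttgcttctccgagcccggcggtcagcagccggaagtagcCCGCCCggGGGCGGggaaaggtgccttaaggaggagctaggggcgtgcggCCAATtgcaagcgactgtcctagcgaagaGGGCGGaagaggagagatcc
RIOK3 held 3 GC boxes, which begin 99, 91 and 20 bases before the start, and a CCAAT box that begins 49 bases before it. RIOK1 held 1 GC box, 45 bases before the start. RIOK2 held none of these motifs. At least 1 GC box stood in 42.6% of 35116 promoter windows of the same length, a CCAAT box in 32.0%, a TATA box in 10.7% and the E-box in 6.34%. A single GC box or CCAAT box is therefore not rare. How many windows hold 3 GC boxes, or GC and CCAAT boxes together, was not counted. The RIOK2 window was 38.8% G or C, against 63.6% for RIOK1, 65.6% for RIOK3 and a median of 58% over all windows, and 10.8% of windows had a lower share than RIOK2.

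Without the drug, RIOK1 was the most abundant of the 3 mRNAs. Per kilobase of annotated exon, as RPKM on the TMM scale (CPM divided by exon length), RIOK1 ranged from 11.2 to 22.5 over the 8 DMSO libraries (median 14.6), RIOK3 from 2.69 to 4.44 (median 3.34) and RIOK2 from 2.21 to 4.22 (median 2.63). RIOK1 did not overlap the others, and the ranges of RIOK2 and RIOK3 overlapped. After 72 h of toyocamycin the order was different. RIOK3 stood at 76.3 ± 7.53 RPKM (SD, n = 3), RIOK1 at 31.4 ± 4.06 and RIOK2 at 8.31 ± 1.27, and the 3 ranges did not overlap. The raw counts behind these levels ran from 89 to 1544 reads per library for RIOK1, 132 to 795 for RIOK2 and 158 to 4180 for RIOK3.

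**Figure D1:**
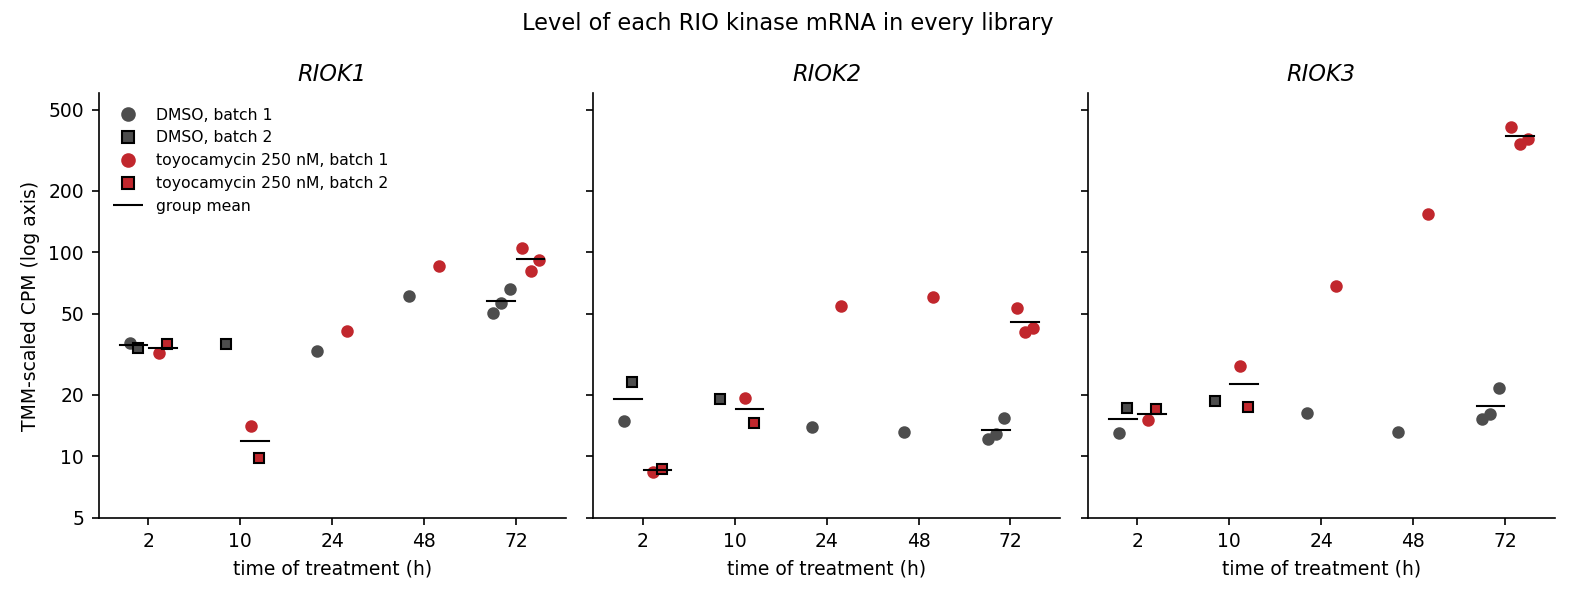
TMM-scaled CPM (log axis) of RIOK1, RIOK2 and RIOK3 in each of the 17 libraries against the time of treatment, with DMSO in grey, toyocamycin in red, squares for batch 2 and bars for the mean of groups with replicates. RIOK2 was low in both toyocamycin libraries of 2 h, RIOK1 was low in both of 10 h, and RIOK3 climbed from 24 h to between 340 and 411 CPM at 72 h.

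RIOK2, the kinase of the earlier 40S step, fell at 2 h, and it alone of the 3 was called at that time. At 2 h its level was 14.9 CPM in DMSO replicate 1 and 23.2 in DMSO replicate 2, and 8.41 and 8.72 in toyocamycin replicates 1 and 2. Both treated libraries lay below both controls, and the controls differed from each other more than the treated libraries did. The fitted log2 fold change was −1.15 (SE 0.225, edgeR quasi-likelihood test, adjusted p = 0.00453), a level 0.451 times that of DMSO. At this time 8.42% of 14491 genes were called lower and 0.518% higher at an adjusted p under 0.1. A fit of the 2 h libraries with a term for the replicate number called more genes, 2217 lower and 1033 higher of 11848. RIOK2 was at −1.12 in it. Within batch 1 the log2 difference was −0.82 and within batch 2 it was −1.41. When the libraries were scaled on the mitochondrially encoded genes the value was −1.15 with an SE of 0.539, which is not called (adjusted p = 0.762). On that scale the log2 difference was −1.22 within batch 1 and −1.06 within batch 2. The mitochondrial share at 2 h was 1.42% (DMSO) and 1.77% (toyocamycin) in batch 1, and 3.47% and 2.65% in batch 2. The fit did not include batch.

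At 10 h the RIOK2 levels overlapped on the TMM scale. DMSO stood at 19.2 CPM, and the toyocamycin libraries at 19.4 and 14.6, on both sides of it. The DMSO library was of batch 2, as was the toyocamycin library at 14.6, and within that batch the log2 difference was −0.39. The log2 fold change was −0.16 (95% interval −0.77 to 0.44, adjusted p = 0.642), so that on the TMM scale an effect as large as that of 2 h lies outside the interval. With library size alone the value was −0.64 and called lower (adjusted p = 0.0755), and on the mitochondrial scale it was −1.27 (SE 0.645, adjusted p = 0.129), no smaller than at 2 h. From 24 h on RIOK2 was high. It was 54.7 CPM with toyocamycin and 13.98 with DMSO at 24 h, and 60.6 and 13.2 at 48 h, with 1 library in each arm. At 72 h the DMSO libraries held 12.1, 12.9 and 15.5 CPM and the toyocamycin libraries 53.6, 40.5 and 42.8. The groups did not overlap. The log2 fold change was 1.98 after 24 h (SE 0.312, adjusted p = 7.33e-05), 2.22 after 48 h (SE 0.317, adjusted p = 2.05e-05) and 1.79 after 72 h (SE 0.182, adjusted p = 1.79e-07), the last a level 3.45 times that of DMSO. With 1 library per arm, the tests at 24 h and 48 h take their spread from the replicates of 2 h and 72 h and assume that the lone libraries vary in the same way.

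These calls stand against a transcriptome in which a large part of the genes moved. At 10 h 24.4% of 16521 genes were called lower and 20.4% higher. Some of the 16521 passed the filter only with toyocamycin replicate 2 of 10 h, since without it 14519 were tested. The shares and the median over all genes at 10 h, here and below, include them. After 24 h the shares were 32% lower and 30.7% higher, after 48 h 35.5% and 39.2%, and after 72 h 41.9% and 47%. A call at 72 h by itself therefore sets a gene apart from few others, and the size of the change says more. RIOK2 had the 3553rd highest log2 fold change of 14491 genes at 48 h and the 4448th at 72 h. The change of its effect from 2 h to 72 h was 2.93 on the log2 scale (SE 0.290, adjusted p = 2.45e-07), in a test that called 76.1% of all genes in either direction.

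RIOK1, the kinase of the later 40S step and the reported target of the drug, fell later than RIOK2 did. At 2 h its level was 35.8 and 34.1 CPM with DMSO and 32.3 and 35.6 with toyocamycin. The groups overlapped, and the log2 fold change was −0.04 (95% interval −0.41 to 0.32, adjusted p = 0.961). At 10 h it was 35.4 CPM in the DMSO library and 14.1 and 9.84 in the toyocamycin libraries. Both treated libraries were below every other RIOK1 value of the series. The log2 fold change was −1.55 (SE 0.249, adjusted p = 1.81e-04), a level 0.341 times that of DMSO. This DMSO library was of batch 2, where the log2 difference from the toyocamycin library of the same batch was −1.85, and batch 1 held no DMSO library at 10 h. Without the batch 2 toyocamycin library, which had the fewest reads, the log2 fold change was −1.33, and that value compares libraries of different batches. The effect at 10 h was lower than that at 2 h by a log2 difference of −1.51 (SE 0.324, adjusted p = 0.00398), where 26.1% of genes were called in either direction.

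The level of RIOK1 also differed between the DMSO libraries of early and late times. Its DMSO values lay between 32.9 and 35.8 CPM up to 24 h, and were 61.3 in the 48 h library and 50.2, 56.5 and 66.3 in those of 72 h, a difference between control times that was not tested. Against these controls toyocamycin gave 41.1 CPM against 32.9 after 24 h, 86.2 against 61.3 after 48 h, and 105, 80.8 and 91.9 after 72 h. The groups did not overlap at 72 h. The log2 fold change was 0.34 after 24 h (95% interval −0.18 to 0.85, adjusted p = 0.252), 0.52 after 48 h (SE 0.238, adjusted p = 0.0658) and 0.71 after 72 h (SE 0.138, adjusted p = 1.80e-04), the last a level 1.64 times that of DMSO. The call at 72 h was lost when libraries were scaled by their size alone, at 0.11, and the value changed sign when they were scaled on the mitochondrially encoded genes, at −0.32. Relative to the median gene of the same fit, RIOK1 stood between 0.535 and 0.573 higher under all 4 scalings, a distance that a change of scaling can hardly alter.

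RIOK3 was not called at 2 h or 10 h and later had the highest fold changes of the 3. At 2 h it was 13.1 and 17.3 CPM with DMSO and 15.04 and 17.1 with toyocamycin, groups that overlap, with a log2 fold change of 0.08 (95% interval −0.34 to 0.50, adjusted p = 0.903). At 10 h the DMSO library held 18.8 CPM and the toyocamycin libraries 27.6 and 17.5, on both sides of it. Within batch 2, which held the DMSO library and the toyocamycin library at 17.5, the log2 difference was −0.10. The log2 fold change was 0.27 (95% interval −0.36 to 0.91, adjusted p = 0.453). At 24 h it was 68.2 CPM against 16.3 and at 48 h 155 against 13.2, with 1 library per arm. At 72 h the toyocamycin libraries reached 411, 340 and 361 CPM, and the DMSO libraries held 15.2, 16.2 and 21.5. The lowest treated library was thus far above the highest control.

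The log2 fold changes of RIOK3 were 2.08 after 24 h (SE 0.277, adjusted p = 1.63e-05), 3.57 after 48 h (SE 0.294, adjusted p = 1.13e-07) and 4.42 after 72 h (SE 0.174, adjusted p = 4.37e-12). The level at 72 h was 21.4 times that of DMSO. Among 14491 genes this was the 2176th highest value, with 85.0% of genes below it. The effect at 72 h exceeded that at 2 h by 4.34 (SE 0.259, adjusted p = 1.11e-09). For RIOK1 the same difference was 0.75 (SE 0.219, adjusted p = 0.00606), and the median over all genes was 0.24.

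The direction of several of these changes depended on how the libraries were made comparable. The median log2 fold change over all genes, on the TMM scale, took the values 0.02, 0.42, 0, 0.16 and 0.18 in the order of the 5 times. Size factors from DESeq2 put it higher, for instance at 0.62 for 10 h and 0.50 for 72 h. Library size alone put it at −0.91 for 24 h and −0.42 for 72 h. Scaling on the mitochondrially encoded genes put it at −0.70, −2.16, −1.64 and −0.89 for 10, 24, 48 and 72 h. From 10 h on the split of all called genes moved with it. At 10 h there were 4033 lower and 3375 higher on the TMM scale, 3370 and 4258 with the DESeq2 factors, 5676 and 1872 with library size alone, and 5362 and 503 on the mitochondrial scale. At 72 h the same counts were 6065 and 6804, 5379 and 7447, 7297 and 5657, and 7362 and 4204. At 24 h and 48 h the mitochondrial scale left 432 and 1630 genes higher. At 2 h it called 87 lower and 12 higher, against 1220 and 75 on the TMM scale. The 2 h median differed little, at −0.06 on the mitochondrial and 0.02 on the TMM scale. A scaling sets 1 factor per library, so it shifts every gene of a comparison by nearly the same amount. The distance of a member from the median gene is therefore nearly fixed by arithmetic, and its small spread tests nothing. It was between 0.22 and 0.40 for RIOK1 at 24 h and between 4.24 and 4.29 for RIOK3 at 72 h over the 4 scalings.

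Under all 4 scalings RIOK3 was called higher at 48 h and 72 h. Its log2 fold change at 72 h was 4.75 with DESeq2's size factors, 3.82 with library size alone and 3.40 on the mitochondrial scale. At 24 h it was called higher under 3 scalings and was −0.19 (adjusted p = 0.864) on the mitochondrial scale. RIOK2 was called higher from 24 h on under the same 3 scalings, and on the mitochondrial scale its values were −0.29, 0.37 and 0.75, none of them called. RIOK1 was called lower at 10 h under all 4, at −1.35 with DESeq2's size factors, −2.04 with library size alone and −2.65 on the mitochondrial scale. The direction of RIOK1 at 24 h changed with the scaling. It was called higher at 0.49 with the DESeq2 factors, and lower at −0.68 with library size alone and −1.93 on the mitochondrial scale.

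**Figure D2:**
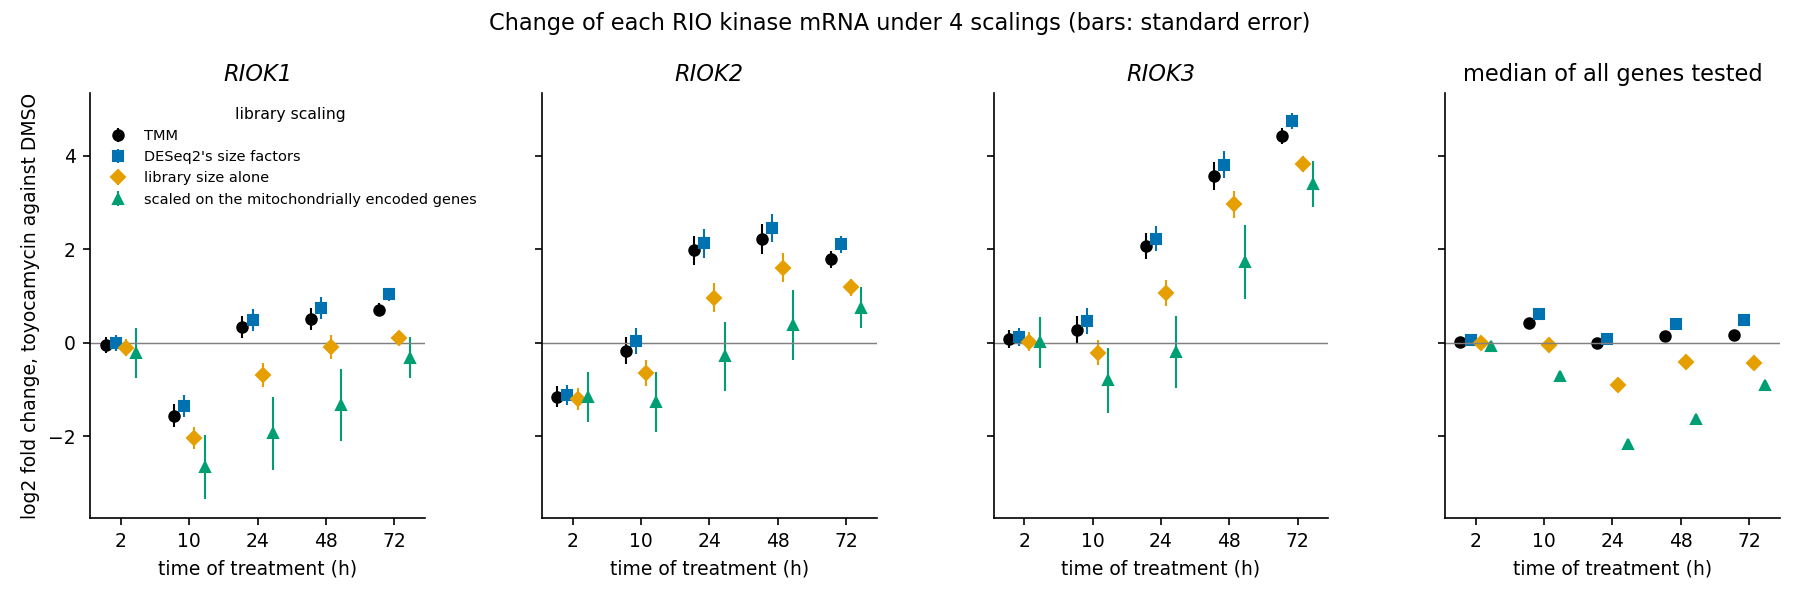
Log2 fold change of toyocamycin against DMSO with its standard error for RIOK1, RIOK2 and RIOK3 at each time under 4 library scalings, and in the last panel the median of all genes tested. Each scaling shifts the 3 kinases and the median gene together, and at 72 h RIOK3 stayed between 3.40 and 4.75 while RIOK1 lay on both sides of 0.

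Ratios between the kinases within a library do not depend on any scaling. The log2 ratio of RIOK2 to RIOK3 reads was lower with toyocamycin than with DMSO at each of the 5 times, by a mean of −1.14 (exact permutation test within times, two-sided, p = 6.94e-04, the smallest the arrangements allow, adjusted over the 3 ratios p = 0.00208). At 2 h it was 0.30 ± 0.17 (SD, n = 2) in DMSO and −0.90 ± 0.09 (n = 2) in toyocamycin. The arms were closest at 24 h, at −0.22 in DMSO and −0.32 in toyocamycin. At 72 h the ratio was −0.38 ± 0.09 (SD, n = 3) in DMSO and −3.03 ± 0.08 (n = 3) in toyocamycin.

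The ratio of RIOK1 to RIOK3 fell by a mean of 2.09 on the log2 scale (exact permutation test, two-sided, p = 0.00208, adjusted p = 0.00313). At 2 h the arms overlapped, at 1.22 ± 0.33 (SD, n = 2) in DMSO and 1.08 ± 0.03 (n = 2) in toyocamycin. The difference was −1.81, −1.74, −3.05 and −3.72 at 10, 24, 48 and 72 h, and at 72 h the ratio was 1.72 ± 0.09 in DMSO and −2.01 ± 0.06 in toyocamycin (SD, n = 3 each). Every DMSO library held more RIOK1 than RIOK3 reads, and every toyocamycin library from 10 h on held fewer.

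The ratio of RIOK1 to RIOK2 differed in direction between times. The difference between toyocamycin and DMSO was 1.07 at 2 h and −1.40 at 10 h. The later differences were −1.64, −1.70 and −1.07 at 24, 48 and 72 h. Over the 5 times the mean difference was −0.95 (exact permutation test, two-sided, p = 0.0813, adjusted p = 0.0813), which is over the threshold of 0.05 used for the ratios and under the 0.1 used for genes. It was −0.94 in the batch 1 libraries alone (exact permutation test, p = 0.138). Over the 4 times from 10 h on, which leave out the only time with the opposite direction, it was −1.45 (exact permutation test, p = 0.00417, the smallest these arrangements allow). At 72 h the 3 against 3 libraries did not overlap in any of the 3 ratios, and the smallest two-sided exact p that this size allows is 0.1.

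**Figure D3:**
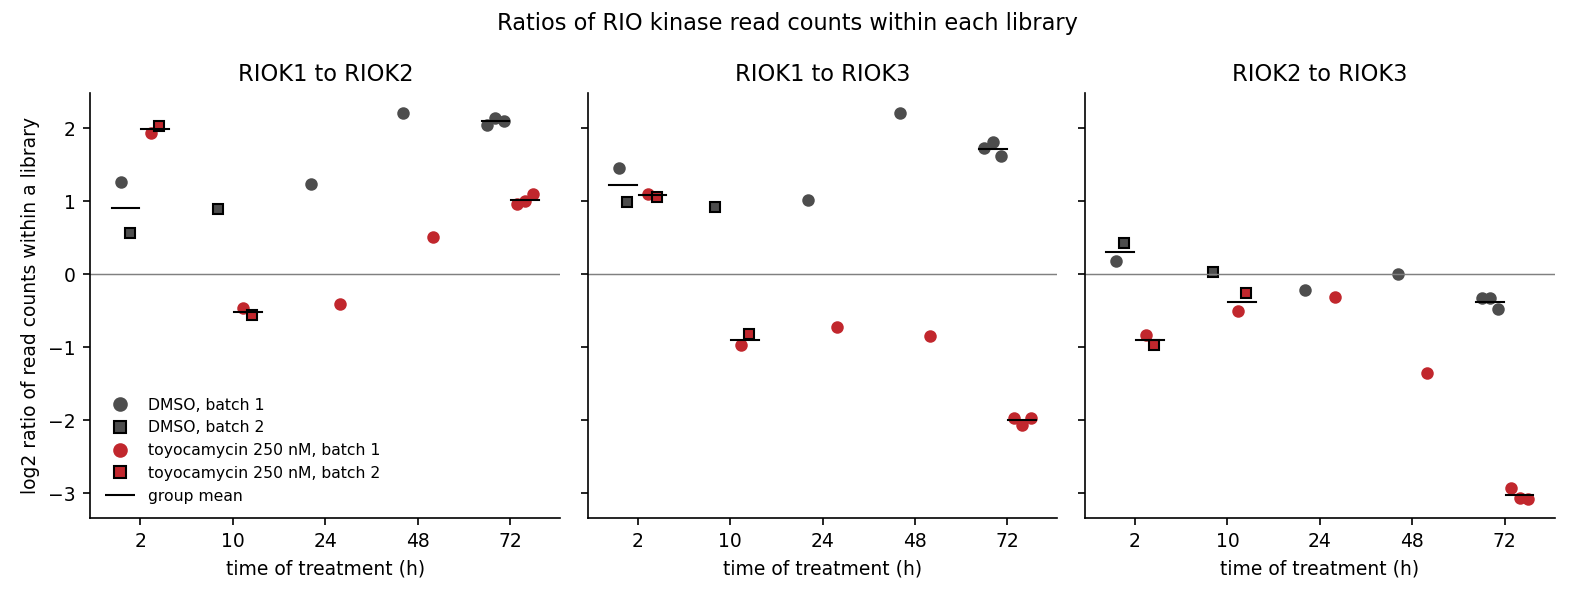
Log2 ratio of read counts between RIO kinases within each of the 17 libraries against the time of treatment, with DMSO in grey, toyocamycin in red, squares for batch 2 and bars for the mean of groups with replicates. The ratio of RIOK1 to RIOK2 is above DMSO at 2 h and below it from 10 h on, and both ratios to RIOK3 reach their lowest values at 72 h.

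The 2 ribosomal RIO kinases work on 40S precursors with a set of other factors, listed here as 25 genes, all of them tested. At 2 h 2 of the 25 were called lower and none higher. At 10 h 13 were lower and none higher, where 24.4% of all genes were lower and 20.4% higher. The median log2 fold change was −0.62 against 0.42 for all genes. The all-gene values include genes that passed the filter only with toyocamycin replicate 2 of 10 h. How far such genes move these values was not tested. With the DESeq2 factors the 10 h counts were 11 lower and 3 higher, against 3370 and 4258 of 16521 genes. After 24 h 9 were lower and 9 higher, after 48 h 11 and 10, and after 72 h 10 and 12, with a final median of 0.14 against 0.18 for all genes. These later counts lie near the shares over all genes, 32% and 30.7%, 35.5% and 39.2%, and 41.9% and 47%. They also depended on the scaling. With library size alone they were 15 lower and 2 higher after 24 h, 15 and 8 after 48 h and 13 and 9 after 72 h. That scaling called 7559 and 2192, 6554 and 4378, and 7297 and 5657 of all 14491 genes at these times. On the mitochondrial scale the counts were 17 and 0 after 24 h, 15 and 0 after 48 h and 13 and 3 after 72 h. Over all genes that scale called 8714 and 432, 7418 and 1630, and 7362 and 4204. With the DESeq2 factors the counts of the list were 8 and 13 after 72 h, against 5379 and 7447 of all genes.

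NOB1, PNO1, LTV1 and CSNK1D, which act on the precursor beside RIOK1 and RIOK2, were higher on the TMM scale from 24 h on. NOB1, the nuclease that makes the last 18S cut, had a log2 fold change of −0.37 at 10 h, which was not called (adjusted p = 0.195), and rose by 1.07 after 24 h and 0.55 after 72 h. PNO1, the partner of NOB1 that covers the cut site, rose by 1.71 and 1.67 at the same times. LTV1, an export factor that leaves when it is phosphorylated, rose by 1.42 and 1.69, and CSNK1D, the casein kinase known for that phosphorylation, by 0.99 and 2.69. At 72 h CSNK1D was called higher under all 4 scalings. PNO1 and LTV1 were called under 3, and had values of 0.64 and 0.66 on the mitochondrial scale. NOB1 was at −0.0457 with library size alone and at −0.52 on the mitochondrial scale, neither of them called.

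BYSL, a factor of 40S assembly, had a time course that resembled that of RIOK2. It fell by 1.03 at 2 h (adjusted p = 4.08e-04), had a log2 fold change of −0.31 at 10 h that was not called (adjusted p = 0.385), and rose by 2.39, 2.42 and 2.59 at 24, 48 and 72 h. The rise of BYSL at 72 h was called under all 4 scalings, and its fall at 2 h under all but the mitochondrial one. The other pre-40S gene called at 2 h was EIF1AD, a relative of an initiation factor that takes part in the release of late factors, named after its values were seen. It fell at first, with log2 fold changes of −1.496 at 2 h and −1.26 at 10 h, and was higher by 0.57 after 72 h, where library size alone gave −0.0347 and the mitochondrial scale −0.49.

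Other pre-40S factors were low at the end. TSR1, a GTPase-like factor that blocks the early binding of initiation factors, fell, with log2 fold changes of −2.13, −1.81 and −0.91 at 10, 24 and 72 h. DHX37, an RNA helicase, had values of −1.002, −2.51 and −3.15 at these times, the last being the largest change of the list. TSR3, which modifies a base of the 18S rRNA, was at 0.41 at 10 h (adjusted p = 0.395), and lower, at −1.88 and −2.76, after 48 and 72 h. At 72 h TSR1, DHX37 and TSR3 were called lower under all 4 scalings.

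The methylosome, the complex of PRMT5 that RIOK1 joins, was listed as 5 genes. None was called at 2 h, 2 were lower and 1 higher at 10 h (24.4% and 20.4% over all genes), and 4 were lower and none higher at 72 h (41.9% and 47%), with a median of −0.97. PRMT5, the methyltransferase, fell, with log2 fold changes of −1.16, −1.62, −2.15 and −1.21 at 10, 24, 48 and 72 h. WDR77, the constant partner of PRMT5, was at −0.31 at 10 h (adjusted p = 0.241) and lower, at −2.48 and −2.84, after 24 and 72 h. NCL, the nucleolar protein nucleolin, was lower by a log2 fold change of −0.58 at 10 h and −0.97 at 72 h. CLNS1A, the adaptor that competes with RIOK1 for PRMT5 and that is named after its values were seen, was not called on the TMM scale at any time and had a log2 fold change of −0.17 at 72 h (adjusted p = 0.371). PRMT5, WDR77 and NCL were called lower at 72 h under all 4 scalings, whereas RIOK1 was higher on the TMM scale and not called, at −0.32, on the mitochondrial scale.

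**Figure D4:**
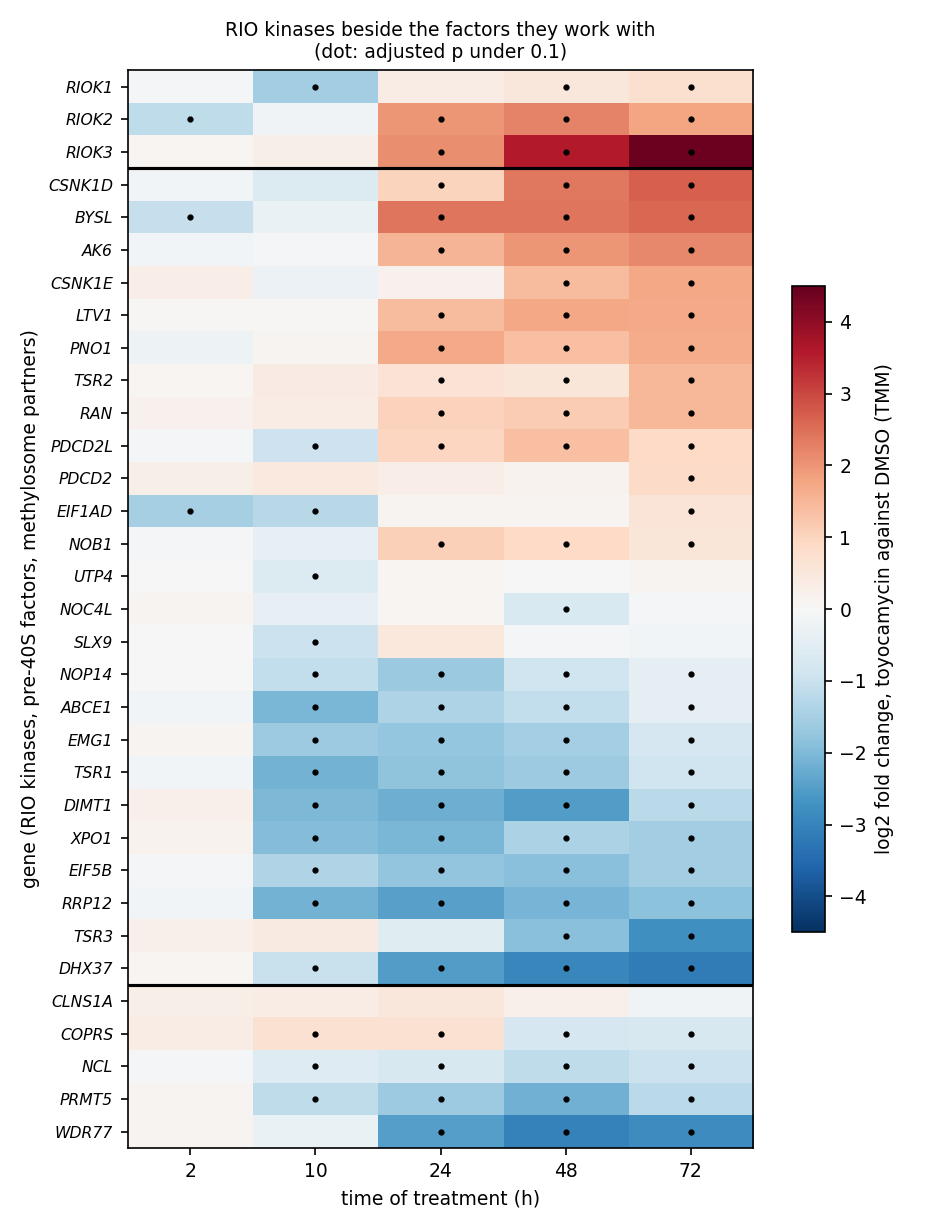
Log2 fold change (colour, TMM scale) of toyocamycin against DMSO at each time for the 3 RIO kinases, 25 pre-40S factors and 5 methylosome partners, each list ordered by its value at 72 h, with a dot where the adjusted p was under 0.1. At 10 h 13 pre-40S factors were lower and none higher, and at 72 h 10 were lower and 12 higher.

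The ribosomal proteins of the small subunit and the factors of the large subunit give the setting. The ribosomal proteins of the small subunit, with RACK1, made 32 genes. Of these 30 were called higher after 10 h, all 32 after 24 and 48 h, and 31 after 72 h. The shares higher over all genes were 20.4%, 30.7%, 39.2% and 47% at 10, 24, 48 and 72 h. None of the 32 was called lower on the TMM scale. Their median log2 fold change was 1.28, 2.23 and 1.52 at 10, 24 and 72 h. On the mitochondrial scale it was 0.16, −0.04 and 0.45 at the same times. At 72 h that scale called 10 of the 32 higher and 2 lower, against 4204 and 7362 of 14491 genes. The genes of late 60S assembly, 14 in all, had 9 lower and none higher at 10 h (24.4% and 20.4% over all genes) and 4 lower and 9 higher at 72 h (41.9% and 47%). At 72 h they had 2 lower and 9 higher with the DESeq2 factors, 5 and 8 with library size alone and 5 and 2 on the mitochondrial scale. Over all 14491 genes these scalings called 5379 lower and 7447 higher, 7297 and 5657, and 7362 and 4204. RSL24D1, a placeholder for a ribosomal protein, rose by 2.09 at 72 h, and LSG1, the GTPase that frees the export adaptor, by 1.84. ZNF622, a zinc finger protein of cytoplasmic 60S maturation, was the only 1 of the 14 called at 2 h. It fell by 0.95 there and rose by 2.07 after 24 h and 1.61 after 72 h.

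RIOK3 has been linked to the signalling of RNA sensors, and 6 genes of that pathway were listed. None was called at 2 h, and at 72 h 4 were lower and 2 higher, where 41.9% and 47% of all genes were, with a median of −0.93. MAVS, the mitochondrial adaptor of the sensors, fell, with log2 fold changes of −1.81, −2.94 and −4.24 at 10, 24 and 72 h, beside 0.27, 2.08 and 4.42 for RIOK3. RIGI, a sensor, fell by 1.43 at 10 h and rose by 2.08 at 72 h. CASP10, a caspase said to bind RIOK3, had 25, 32 and 27 reads in the toyocamycin libraries of 72 h and 1, 0 and 0 in the DMSO libraries, too few for a fold, so that 1 of the 2 genes called higher has no usable fold change. The changes of MAVS and RIGI at 72 h were called in the same direction under all 4 scalings.

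Among 6 other kinases with an atypical fold, 1 was lower at 2 h (8.42% over all genes), 4 were lower at 10 h (24.4%), and 3 were lower and 3 higher at 72 h, near the 41.9% and 47% over all genes. The call at 2 h was TP53RK, the RIO-like kinase of the KEOPS complex, named after its values were seen, which was at −1.28 at 2 h and −1.02 at 10 h, both called, and rose by 1.21 after 24 h and 0.57 after 72 h, although the last value was −0.0338 with library size alone and −0.52 on the mitochondrial scale. Of the mitochondrial ADCK group, ADCK2 was lower at −2.10 after 10 h and −2.76 after 72 h, ADCK5 fell by 2.29 after 72 h, and ADCK1 rose by 2.09. At the end CDK9, examined by the study as a target of toyocamycin, and ERN1 were both lower. CDK9, which releases paused RNA polymerase II, had a log2 fold change of −0.41 at 2 h (adjusted p = 0.289), and was lower at 10 h (−1.67) and 72 h (−1.41). ERN1, the stress sensor IRE1, was at −0.41 at 2 h (adjusted p = 0.242) and fell by 1.20 at 72 h. CDK9 and ERN1 were called lower at 72 h under all 4 scalings.

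The genes whose log2 CPM followed each kinase most closely over the 17 libraries were sought among 7142 genes of at least moderate level. These correlations are descriptions, since all libraries share the treatments, the times and the TMM scale. For RIOK1 they included RRP1 (r = 0.976), a nucleolar protein of rRNA processing, and DNAJA2 (r = 0.969), a cochaperone. RRP1 shared the dip, with log2 fold changes of −0.27, −2.18 and 1.14 at 2, 10 and 72 h. For RIOK2 they were RPRD2 (r = 0.983), which binds the tail of RNA polymerase II, ZNF507 (r = 0.979), a zinc finger protein, and STK17A (r = 0.978), a kinase of the DAP family. ZNF507 fell by 1.15 at 2 h and rose by 2.87 after 24 h and 3.12 after 72 h.

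For RIOK3 the most alike genes were PPP6C (r = 0.991), the catalytic subunit of a phosphatase, RHBDD1 (r = 0.991), a rhomboid protease, and MDM2 (r = 0.990), the ubiquitin ligase of p53. MDM2 had log2 fold changes of −0.58, 2.50, 3.85 and 4.45 at 2, 24, 48 and 72 h, beside 0.08, 2.08, 3.57 and 4.42 for RIOK3. Between the kinases themselves the correlation was 0.864 for RIOK2 and RIOK3, 0.609 for RIOK1 and RIOK3, and 0.487 for RIOK1 and RIOK2 over the 17 libraries.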

How the data were processed

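Polyadenylated RNA of 17 libraries was sequenced as paired reads, and per the labels the authors aligned them with STAR 2.7.5a to GRCh38. The deposited table holds whole-number counts of reads per gene, which the authors had not normalized, with Ensembl identifiers for 19141 genes, of which 19080 matched a symbol. Its 1 column that belongs to no sample listed here was not used. A table of the authors' own comparisons (fold changes and p-values) was not used either. Groups came from the labels' treatment and time. Depth limits the precision, and the lowest member count was 89 reads.

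Counts were fitted with edgeR 4.0.16 (R 4.3.3) by filterByExpr, TMM and the quasi-likelihood F test in its earlier form, with 1 coefficient per group and no minimum fold. The times 2, 24, 48 and 72 h came from a fit of 14 libraries and 10 h from a fit of all 17, and p-values were adjusted by Benjamini-Hochberg over all genes tested and called under 0.1. The edgeR counts test was run on simulated data first. That simulation changed few genes, as many up as down, so it cannot check a case in which most genes move. Intervals are at 95%. Replicates are biological per the labels. Ratios used a pseudocount of 0.5 read and exact permutation of treatment within times, read at an adjusted p under 0.05. The replicate numbers of 2 h follow the labelled batches, and the deviations of same-numbered libraries correlated at 0.307. With 2 libraries per arm the deviations mirror each other, so this value cannot tell a pairing of replicates from shared batch. The main fits included neither. Alternatives were DESeq2 1.42.0 and its size factors, library size alone, scaling on 13 mitochondrially encoded genes, no filter, a batch term, a replicate block and leaving out libraries.

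The 3 genes and the gene lists were chosen with earlier results of these data known. Genes of a list were named if they had its 3 largest called changes at 72 h, or as NOB1, PNO1, LTV1, BYSL, TSR1, PRMT5, WDR77, CDK9 or ERN1, and others are said to be chosen after seeing their values. Alike genes were the 3 highest Pearson correlations among genes with a mean log2 CPM of at least 4. Some results of these rules are not reported here.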

Additional observations from a re-analysis of the deposited data

Results flagged for a closer look

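On the TMM scale the effect of toyocamycin differed between 2 h and 72 h for each of the RIO kinases in a test of the difference itself. From 2 h to 72 h it rose by 0.75 for RIOK1, 2.93 for RIOK2 and 4.34 for RIOK3 on the log2 scale, with adjusted p-values of 0.00606, 2.45e-07 and 1.11e-09 (edgeR quasi-likelihood test over 14491 genes, of which 76.1% were called). For RIOK1 the call was lost with library size alone, at 0.21 (adjusted p = 0.430), and the value was −0.11 on the mitochondrial scale. From 2 h to 10 h it changed by −1.51 for RIOK1 (adjusted p = 0.00398) and by 0.98 for RIOK2 (adjusted p = 0.0822), and for RIOK3 the difference of 0.19 was not called (adjusted p = 0.823), where 26.1% of all genes were. The RIOK2 call was lost without DMSO replicate 2 of 2 h (0.63, adjusted p = 0.249), toyocamycin replicate 1 of 2 h (0.96, adjusted p = 0.155), toyocamycin replicate 2 of 2 h (1.04, adjusted p = 0.119) or toyocamycin replicate 1 of 10 h (0.76, adjusted p = 0.158), and its sign turned on the mitochondrial scale (−0.11). The effect at 10 h rests on 1 DMSO library. No group had the 4 samples needed to look for a library far from its group.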

How the results depend on the processing

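Of the kinases' values under alternatives, 254 kept their direction and call, 15 kept the direction and lost the call, 3 gained one and 22 changed sign. With DESeq2's size factors RIOK2 at 10 h changed sign (0.0376) and RIOK1 at 24 h became called (0.49). With library size alone RIOK3 at 10 h (−0.21), RIOK1 at 24 h (−0.68) and at 48 h (−0.0945) and RIOK3 for 10 h minus 2 h (−0.24) changed sign, RIOK2 at 10 h became called (−0.64), and RIOK1 at 72 h (0.11), RIOK1 for 72 h minus 2 h (0.21) and RIOK2 for 10 h minus 2 h (0.56) lost the call. On the mitochondrial scale RIOK3 at 10 h (−0.80), RIOK1, RIOK2 and RIOK3 at 24 h (−1.93, −0.29 and −0.19), RIOK1 at 48 h (−1.33) and 72 h (−0.32), RIOK1 for 72 h minus 2 h (−0.11), and RIOK2 and RIOK3 for 10 h minus 2 h (−0.11 and −0.81) changed sign, and RIOK2 at 2 h (−1.15), 48 h (0.37) and 72 h (0.75) lost the call. The shifts of value go with the median of all genes. RIOK2 at 2 h did not shift, at −1.15 on the TMM and the mitochondrial scale, and its SE was 0.225 on the first and 0.539 on the second. RIOK1 at 48 h lost its call at an adjusted p under 0.05 (0.52), without the filter (0.48), and in all 17 libraries without or with a batch term (0.49 in both), and RIOK2 for 10 h minus 2 h lost it under 0.05 (0.98). With DESeq2's Wald test RIOK2 at 10 h was at 0.0386. The ratio of RIOK1 to RIOK2, over the 0.05 threshold in all times, was under it from 10 h on (−1.45). The causes were not tested.

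Leaving out a library moved RIOK1 at 2 h from −0.12 to 0.0289, RIOK3 at 2 h from −0.11 to 0.29, RIOK2 at 10 h from −0.39 to 0.0258, RIOK3 at 10 h from −0.10 to 0.56, and the differences between 10 h and 2 h from 0.63 to 1.28 for RIOK2, which lost its call in 4 of the 6 fits, and from −0.19 to 0.48 for RIOK3. RIOK2 at 2 h stayed called between −1.44 and −0.79, and RIOK3 at 72 h between 4.33 and 4.59. With a replicate block the values were −0.06, −1.12 and 0.08 for RIOK1, RIOK2 and RIOK3 at 2 h, and 0.81, 1.88 and 4.53 at 72 h, and no member call changed. Over all genes the block called 2217 lower and 1033 higher of 11848 at 2 h, against 738 and 17 in the same libraries without it. At 72 h all libraries were of batch 1, so that the replicate numbers follow no difference of batch. The deviations of same-numbered libraries there correlated at −0.105, 0.0427 and −0.0876. The comparisons of effects between times, the gene lists without each library and the ribosomal protein list under other scalings were added after seeing the data. Of the list counts, 273 stayed within 1.5 times and 51 did not.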
